A study of Mus musculus with 18 samples.

Results

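The subject is a list of 36 genes of the ATF4-driven amino acid response and of the unfolded protein response, followed in C2C12 myotubes given dexamethasone, ginsenoside Rc or both. The members were the rows of the expected-count table whose Ensembl mouse gene ID maps to the 36 listed symbols. All 36 were found among 48795 gene IDs, and all 36 were among the 15436 genes that passed the low-count filter. C2C12 is an established mouse myoblast line that fuses into multinucleate myotubes, here over 5 days in 2% horse serum. Poly-A RNA was sequenced in 18 libraries, 3 in each of 6 groups: dexamethasone (200 µM for the last 24 h, after 12 h of 0.1% DMSO), the same dexamethasone treatment after 12 h with 10 µM or 20 µM ginsenoside Rc, 10 µM ginsenoside Rc alone, 20 µM ginsenoside Rc alone, and vehicle control (0.1% DMSO). All groups were labelled 36 h and as 1 batch. Dexamethasone is a synthetic glucocorticoid used to induce atrophy of myotubes, and ginsenoside Rc is a ginseng saponin. All groups are treatments of a single cell line, and nothing in the labels says that the replicates were separate cultures. In the main fit, each p-value sets a difference in group means against spread among replicate libraries, estimated from all 18 libraries together. Part or all of that spread may be technical.

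When amino acids run short or unfolded proteins build up in the endoplasmic reticulum (ER), stress kinases phosphorylate the translation factor eIF2. General translation then slows while Atf4 mRNA is translated, and the ATF4 protein, paired with C/EBP factors, switches on genes for amino acid uptake, synthesis and transfer. The other arms of the unfolded protein response run through IRE1 (gene Ern1), which splices Xbp1 mRNA, and ATF6, which is cleaved in the Golgi. Both raise ER chaperones. In muscle, ATF4 is known from studies of fasting and wasting. Counts per gene measure mRNA only: they do not measure translation of Atf4, splicing of Xbp1 or cleavage of ATF6.

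Promoter sequence from RefSeq (GRCm38.p6, 250 bases before to 50 after each gene's start) was held for 32 of the 36 genes and was searched for 2 published elements. The C/EBP-ATF response element, searched as TGATGNAA on both strands, is bound by ATF4 and its partners. It was in 8 of 32 windows (25.0%), against 2.76% of the 11031 tested genes with a window. The stretches around 6 of these matches are shown because they lie before the start of members whose levels are described below. Capitals mark the fixed letters of the element, which appears as its reverse complement where it lies on the other strand.
Asns: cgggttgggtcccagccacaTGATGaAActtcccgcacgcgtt
Chac1: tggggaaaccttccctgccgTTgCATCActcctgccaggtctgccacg
Nupr1: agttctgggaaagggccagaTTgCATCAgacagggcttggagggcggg
Atf3: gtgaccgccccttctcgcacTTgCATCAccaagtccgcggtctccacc
Slc7a11: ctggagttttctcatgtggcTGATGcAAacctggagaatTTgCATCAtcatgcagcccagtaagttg
Herpud1: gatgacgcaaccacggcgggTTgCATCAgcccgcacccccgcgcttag
They lie at Asns chr6:7693210-7693252 (minus strand), Chac1 chr2:119351029-119351076 (plus strand), Nupr1 chr7:126625553-126625600 (minus strand), Atf3 chr1:191183416-191183463 (minus strand), Slc7a11 chr3:50443633-50443699 (minus strand) and Herpud1 chr8:94386297-94386344 (plus strand). The Slc7a11 stretch holds the element 2 times, once in each orientation. The other matches, in Slc1a4 and Trib3, span or follow the start.

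The ER stress response element, searched on both strands as CCAAT and CCACG with any 9 bases between them, is bound by ATF6 together with NF-Y. It was in 5 of 32 windows, all of them among the 9 ER chaperone genes with a window (55.6%), against 0.181% (20) of the tested genes with a window. Capitals mark its fixed letters, which read CGTGG and ATTGG where it lies on the other strand.
Hspa5: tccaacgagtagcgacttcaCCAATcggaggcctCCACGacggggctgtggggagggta
Hsp90b1: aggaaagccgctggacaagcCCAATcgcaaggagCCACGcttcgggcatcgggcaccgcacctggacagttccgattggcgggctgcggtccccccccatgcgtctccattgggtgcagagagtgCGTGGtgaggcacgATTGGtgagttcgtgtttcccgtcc
Calr: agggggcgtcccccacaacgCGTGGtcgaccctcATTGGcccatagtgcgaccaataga
Pdia6: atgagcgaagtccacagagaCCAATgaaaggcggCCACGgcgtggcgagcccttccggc
Creld2: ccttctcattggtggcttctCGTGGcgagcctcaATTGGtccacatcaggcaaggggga
They lie at Hspa5 chr2:34772005-34772063 (plus strand), Hsp90b1 chr10:86705513-86705676 (minus strand), Calr chr8:84847055-84847113 (minus strand), Pdia6 chr12:17266471-17266529 (plus strand) and Creld2 chr15:88819500-88819558 (plus strand). Hsp90b1 holds the element 2 times. Of 3 further strings, the XBP1 and ATF6 element TGACGTGG was in 0 of 32 windows (0.988% of tested genes), and the glucocorticoid string ACANNNTGT in 0 of 32 (5.32%). The cyclic AMP response element core TGACG, which is part of TGACGTGG, was in 13 of 32 (40.6%, against 34.3%). A match is a string of letters and not a shown binding site.

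The libraries held 32350871 to 45388579 estimated fragments, and the lowest count of any member in any library was 121 (Atf3). In all 4 genes checked, the glucocorticoid response was present: Fkbp5, a known target, averaged 428 ± 12.8 CPM (fragment counts normalised to library size, scaled by TMM) with dexamethasone and 23.8 ± 0.996 CPM in control (SD, n = 3 each). Myotube markers summed to 20711 to 21858 CPM in dexamethasone libraries and 18847 to 20009 CPM in control libraries. Replicate 2 of 20 µM ginsenoside Rc alone stood apart on the second principal component and gave 2.79% of its fragments to mitochondrial genes, against 1.26% to 1.91% in the other 17 libraries. It fell outside the range of the other 8 libraries without dexamethasone for 24 of the 36 members (16 below, 8 above). Values without that library are given beside the main counts and medians at 20 µM and beside the single genes it moved most.

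Dexamethasone lowered most of the list. Compared with control, 26 of 36 genes fell and 2 rose (72.2% and 5.56%), against 23.2% and 20.6% of all 15436 genes tested (edgeR quasi-likelihood test, Benjamini-Hochberg adjusted p under 0.05). The list was chosen with earlier results of these data known, so its contrast with all genes is descriptive only. The median log2 fold change was -0.40 over the list and -0.01 over all genes tested. In 27 genes all 3 dexamethasone libraries lay below all 3 control libraries, and in 3 all lay above (30.5% and 28.8% of all genes). The members' summed share of fragments was 0.451% to 0.474% with dexamethasone and 0.564% to 0.583% in control. Calr, Hspa5 and Hsp90b1 (control means of 1048, 775 and 681 CPM) weigh most in that share. It is not scaled by TMM, and without such scaling the median log2 change over all genes was -0.07. By role, the median log2 change was -0.61 for serine, one-carbon and asparagine synthesis, -0.51 for feedback and stress effectors and -0.29 for ER chaperones and quality control. Differences between these medians were not tested.

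**Figure D1:**
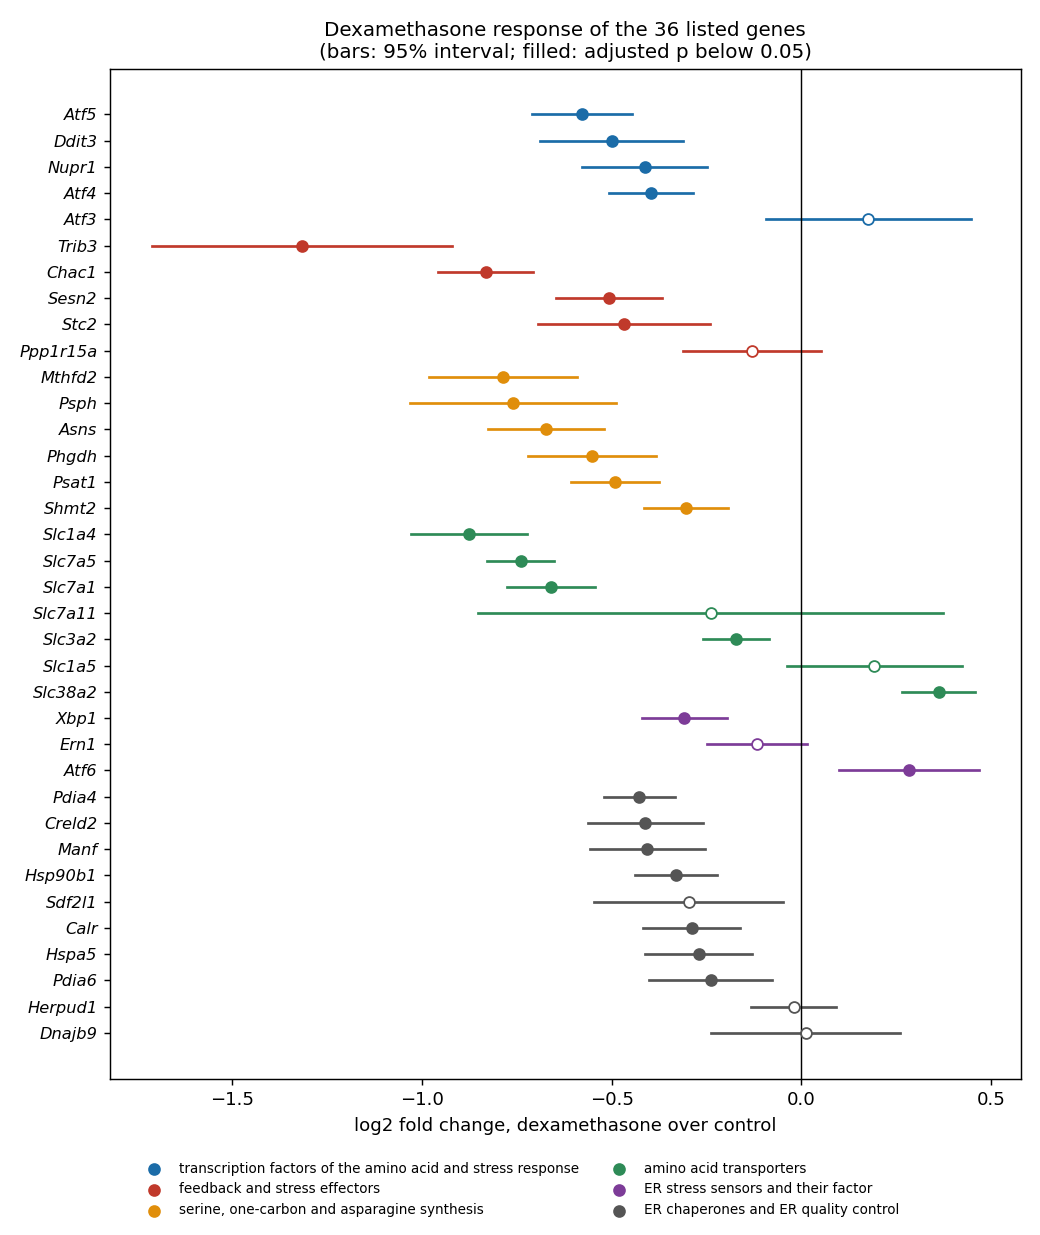
Log2 fold change of each of the 36 genes with dexamethasone over control (points, with 95% intervals; n = 3 libraries each), grouped and coloured by role; filled points passed an adjusted p of 0.05. Trib3 lies furthest below 0 at -1.32, all 6 synthesis genes are filled and below 0, and Slc38a2 and Atf6 are the 2 filled points above 0.

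Among the transcription factors, 4 of 5 fell (median -0.41). Atf4 itself had 210, 202 and 211 CPM with dexamethasone, against 274, 269 and 277 CPM in control. The groups were far apart relative to their spread, and Atf4 fell by 0.40 on the log2 scale (-0.40 ± 0.05, SE; adjusted p = 6.1e-06). Atf5, a related factor translated under the same stress, had 84, 90.8 and 83.6 CPM with dexamethasone and 132, 122 and 132 CPM in control, a log2 change of -0.58 ± 0.06 (adjusted p = 4.9e-07). Ddit3, which encodes the pro-apoptotic factor CHOP, had 10.2, 11.1 and 10.1 CPM with dexamethasone and 15, 15.9 and 13.4 CPM in control, a change of -0.50 ± 0.09 (adjusted p = 0.00015). Neither gene's groups overlapped. Both overlap a neighbour on the other strand, Atf5 with Nup62 by 82 bases and Ddit3 with Mars by 68. Whether counting kept the strands apart is not stated. Mars held 72425 fragments over all libraries against 9063 for Ddit3, and Nup62 held 41187 against 76623 for Atf5. The counts of both members are thus uncertain, those of Ddit3 beside a neighbour with more fragments than its own. Nupr1, a small stress-induced nuclear protein, had 37.8, 35.1 and 40.8 CPM with dexamethasone, against 50, 49.2 and 52.1 CPM in control (-0.41 ± 0.08, adjusted p = 0.00028). Atf3, a stress-induced repressor, did not pass: it had 5.17, 4.56 and 4.93 CPM with dexamethasone and 4.85, 4.35 and 3.78 CPM in control, which overlap (0.18 ± 0.13, adjusted p = 0.29, 95% interval -0.09 to 0.45).

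Of 5 feedback and stress effectors 4 fell. Trib3, a pseudokinase that restrains ATF4, changed most of all members on the log2 scale, with 4.72, 3.71 and 4.24 CPM under dexamethasone and 10.5, 11 and 10 CPM in control (-1.32 ± 0.19, adjusted p = 1.6e-05). Chac1, an enzyme that breaks down glutathione, had 14, 13.4 and 14.3 CPM with dexamethasone and 24.7, 24.9 and 24.4 CPM in control, with a spread within each group of under 1 CPM (-0.83 ± 0.06, adjusted p = 1.8e-09). Stc2, a secreted stress glycoprotein, had 9.43, 8.47 and 7.71 CPM with dexamethasone, against 11.4, 12 and 12 CPM in control (-0.47 ± 0.11, adjusted p = 0.0016). All 3 were without overlap. Sesn2, a leucine sensor that restrains mTORC1, stood at 14.6 to 16.6 CPM with dexamethasone and 21.5 to 23.1 CPM in control (-0.51 ± 0.07, adjusted p = 4.8e-06). Ppp1r15a, the phosphatase subunit GADD34 that reverses eIF2 phosphorylation, did not pass (-0.13 ± 0.09, adjusted p = 0.25, 95% interval -0.31 to 0.05).

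All 6 genes of serine, one-carbon and asparagine synthesis fell. Asns, asparagine synthetase, had 39.3, 37.5 and 37.6 CPM with dexamethasone and 53.4, 64.2 and 64.7 CPM in control (-0.67 ± 0.07, adjusted p = 4.4e-07). Psat1, the transaminase of serine synthesis, had 102, 108 and 103 CPM with dexamethasone and 139, 149 and 151 CPM in control (-0.49 ± 0.06, adjusted p = 7.7e-07). Mthfd2, a mitochondrial folate enzyme, had 27.6, 27.2 and 28.8 CPM with dexamethasone, against 41.9, 51.7 and 50.3 CPM in control (-0.79 ± 0.09, adjusted p = 1.5e-06). In each, the dexamethasone libraries lay close together and below every control library, while the control libraries were more spread, replicate 1 being the lowest. Phgdh and Psph, which open and close the serine pathway, changed by -0.55 ± 0.08 and -0.76 ± 0.13, and Shmt2, which moves a carbon from serine to folate in mitochondria, by -0.30 ± 0.05. Psph shares 452 bases with Cct6a on the other strand, which held 164148 fragments over all libraries against 7225 for Psph, so its counts are uncertain.

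The 7 amino acid transporters divided. Slc7a5, the light chain of the large neutral amino acid exchanger LAT1, had 110, 114 and 112 CPM with dexamethasone and 185, 189 and 188 CPM in control. The gap was many times the spread within either group, and its adjusted p was the smallest of the list (-0.74 ± 0.04, adjusted p = 8.8e-11). Slc1a4, which carries serine and alanine, changed by -0.87 ± 0.07 and Slc7a1, a carrier of arginine and lysine, by -0.66 ± 0.06. Slc3a2, the heavy chain that pairs with Slc7a5 and Slc7a11, fell by a small amount, with 107 to 115 CPM under dexamethasone and 125 to 126 CPM in control (-0.17 ± 0.04, adjusted p = 0.0022). Slc38a2, the sodium-coupled neutral amino acid transporter SNAT2, rose instead, with 482, 509 and 505 CPM with dexamethasone and 385, 395 and 384 CPM in control (0.36 ± 0.05, adjusted p = 3.2e-06). Slc1a5, the glutamine carrier ASCT2, lay at 10.9 to 12.3 CPM with dexamethasone and 9.52 to 10.4 CPM in control, which did not overlap, yet did not pass (0.19 ± 0.11, adjusted p = 0.17; 0.048 without replicate 2 of 20 µM alone). Slc7a11, the cystine and glutamate exchanger, varied most between replicates, with 14.8, 17.5 and 9.99 CPM with dexamethasone and 20.2, 11.5 and 18.5 CPM in control. These overlap, and the 95% interval of the change ran from -0.85 to 0.37 on the log2 scale. The estimated fragments of Slc7a11 were not whole numbers in any of the 18 libraries, nor were those of Hsp90b1, Phgdh and Psph.

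Of the ER stress sensors and their factor, 1 fell, 1 rose and 1 did not pass. Xbp1, the factor downstream of IRE1, had 134, 134 and 141 CPM with dexamethasone, against 170, 166 and 170 CPM in control (-0.31 ± 0.05, adjusted p = 0.00011). Atf6, the sensor of the ATF6 arm, was higher, with 275, 270 and 268 CPM with dexamethasone and 224, 209 and 235 CPM in control (0.28 ± 0.09, adjusted p = 0.013; 0.065 without control replicate 2). Ern1 had 38.1, 36.3 and 36.1 CPM with dexamethasone and 40.8, 37.4 and 41.8 CPM in control, groups that overlap (-0.12 ± 0.06, adjusted p = 0.14).

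Of 10 genes of ER chaperones and ER quality control, 7 fell and none rose. Hspa5, the main ER chaperone BiP, had 628, 671 and 628 CPM with dexamethasone and 768, 773 and 783 CPM in control (-0.27 ± 0.07, adjusted p = 0.0029). Creld2, a small ER stress protein, had 24.4, 25.4 and 25 CPM with dexamethasone, against 32.9, 33.8 and 32.7 CPM in control (-0.41 ± 0.07, adjusted p = 0.00013). Manf, a secreted ER stress factor, had 74, 70.5 and 77.9 CPM with dexamethasone and 99, 95.6 and 100 CPM in control (-0.41 ± 0.07, adjusted p = 0.00014). None of the 3 overlapped between groups. Manf shares 146 bases with Dcaf1 on the other strand, which held 33178 fragments over all libraries against 61547 for Manf, and its estimated fragments were not whole in 5 libraries, so its counts are uncertain. The disulfide isomerases Pdia4 and Pdia6 changed by -0.43 ± 0.04 and -0.24 ± 0.08, the ER form of HSP90, Hsp90b1, by -0.33 ± 0.05, and the calcium-binding chaperone Calr by -0.29 ± 0.06. Pdia6 did not pass without dexamethasone replicate 1 or without control replicate 2 (adjusted p = 0.067 and 0.092). Sdf2l1, an ER resident that works with BiP, stood just outside the threshold, with 9.79, 12.3 and 11 CPM with dexamethasone and 14.5, 13.9 and 12.3 CPM in control (-0.30 ± 0.12, adjusted p = 0.0502; 0.0039 without replicate 2 of 20 µM alone). Herpud1, which helps remove misfolded proteins from the ER, had 179, 186 and 199 CPM with dexamethasone and 185, 196 and 192 CPM in control, with an interval of -0.13 to 0.09 on the log2 scale. Dnajb9, the BiP partner ERdj4, had 56, 49.6 and 57.7 CPM with dexamethasone and 51.1, 54.3 and 56.6 CPM in control, with an interval of -0.24 to 0.26. Both overlap between groups.

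**Figure D2:**
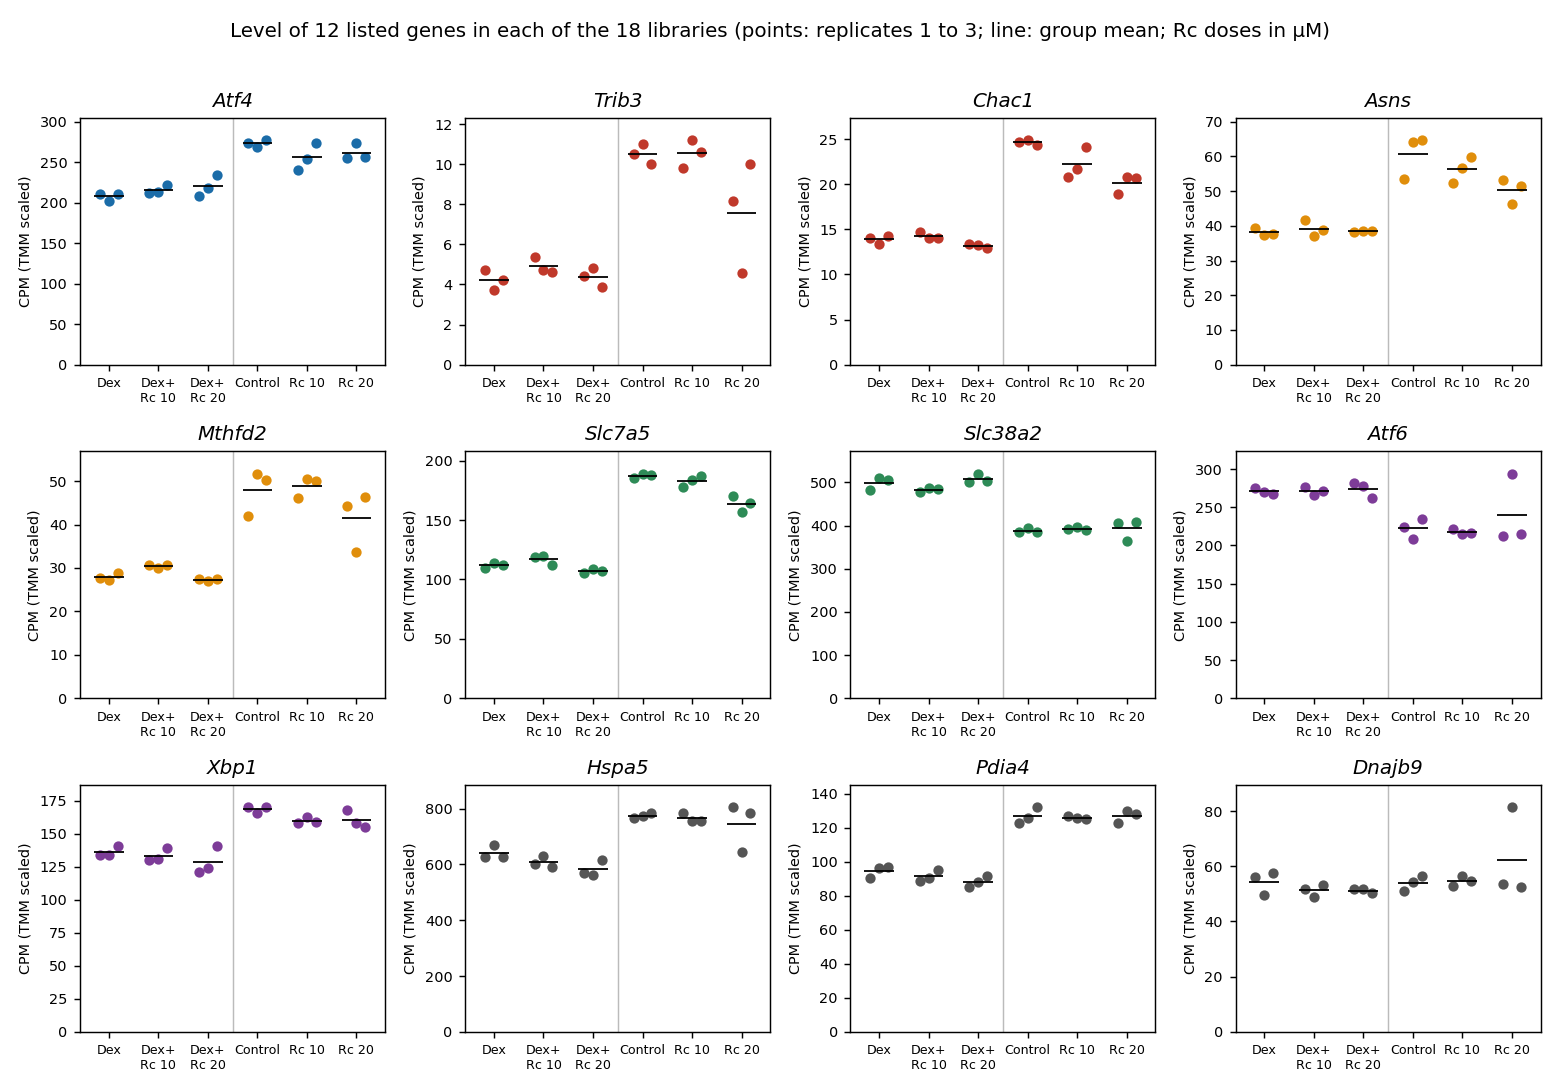
CPM (TMM scaled, linear axes from 0) of 12 genes in each library, with dexamethasone groups on the left of each panel and groups without dexamethasone on the right; points are replicates 1 to 3 and lines are group means. Trib3, Chac1, Asns, Mthfd2 and Slc7a5 are lower in the dexamethasone groups, Slc38a2 is higher, and replicate 2 of 20 µM alone stands apart for Trib3 (4.55), Atf6 (294), Hspa5 (644) and Dnajb9 (81.4).

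The promoter elements can be set beside these changes. Of the 8 genes with TGATGNAA, 5 fell: Asns, Chac1, Nupr1, Slc1a4 and Trib3. Over the whole list 26 of 36 fell (72.2%), and 23.2% of all genes tested. Atf3, Herpud1 and Slc7a11, whose stretches are printed above, did not pass. All 5 genes with the ER stress response element fell, between -0.24 (Pdia6) and -0.41 (Creld2), beside 7 of all 10 ER chaperone and quality control genes. Pdia4, whose window held no match, changed by -0.43. Whether either element goes with the fall was not tested, and other genes with these elements were not examined. Per kilobase of exon, the control level was highest for Calr (364 ± 12.1 CPM per kb), Hspa5 (183 ± 1.79) and Hsp90b1 (169 ± 4.5), then Atf4 (116 ± 1.56), and lowest for Slc7a11 (1.2 ± 0.331; SD, n = 3). The highest genes named here all fell, though Herpud1, next in that order (81.8 ± 2.42), did not pass. At the low end, Slc7a11, Atf3, Slc1a5 and Ern1 did not pass, while Stc2, Psph and Trib3 fell. Whether the calls depended on level was not tested.

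Other measures moved with dexamethasone too. The 10 markers of undifferentiated myoblasts, a list that includes cell cycle genes, summed to 199 to 208 CPM with dexamethasone and 284 to 291 CPM in control. Of these 10, 6 fell and 4 rose. The 6 adipocyte markers summed to 73.5 to 79.5 CPM with dexamethasone and 16.3 to 18 CPM in control, most of it Cebpa, while Plin1 and Lep were at 0 CPM in both groups. Macrophage markers summed to at most 1.39 CPM and endothelial markers to at most 0.309 CPM in either group, with Ptprc, Adgre1 and Pecam1 at 0 CPM with dexamethasone. The 5 osteoblast markers summed to 21.8 to 22.3 CPM with dexamethasone and 33.6 to 36.7 CPM in control, nearly all of it Runx2, and the 3 of them that were tested fell (Runx2, Sp7 and Alpl). Mitochondrial genes took 1.68% to 1.82% of fragments with dexamethasone and 1.26% to 1.38% in control. The part of these shifts in the results was not tested, and in such bulk libraries fewer cells of a type cannot be told apart from less RNA per cell.

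Neighbouring genes of the same pathways, taken from lists, moved in part with the 36. All pathway lists were likewise chosen with earlier results of these data known, so their counts are descriptive only. Among 24 other tested ATF4 targets 12 fell and 8 rose (median -0.22). They were led by Aldh1l2 and Aldh18a1, enzymes of mitochondrial folate and proline synthesis, which changed by Aldh1l2 -1.41 ± 0.06 (adjusted p = 5.1e-12) and Aldh18a1 -1.09 ± 0.06 (adjusted p = 8.2e-11). In the other direction stood Vldlr 1.38 ± 0.09 (adjusted p = 3.8e-10) and Gadd45a 0.74 ± 0.05 (adjusted p = 1.4e-09). Of 20 cytosolic aminoacyl-tRNA synthetases, which charge tRNAs with amino acids, 12 fell and 2 rose (median -0.20). The 2 smallest adjusted p-values in each direction were Cars -0.50 ± 0.06 (adjusted p = 1.6e-06) and Aars -0.35 ± 0.05 (adjusted p = 4.6e-06), and Wars 0.23 ± 0.05 (adjusted p = 0.00048) and Qars 0.14 ± 0.04 (adjusted p = 0.012). Of 21 other ER chaperones and oxidoreductases 12 fell and none rose (median -0.23), with Txndc5 -0.73 ± 0.06 (adjusted p = 2.4e-08) and Pdia5 -1.19 ± 0.10 (adjusted p = 2.7e-08).

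In further lists of these pathways the picture was mixed. Among 16 stress kinases and eIF2 factors, which lie upstream of ATF4, 4 rose and 3 fell (median 0.05). Without composition scaling 2 rose and 4 fell (median -0.02). The ER kinase PERK fell (Eif2ak3 -0.37 ± 0.06 (adjusted p = 7.8e-05)), as did the RNA-activated kinase PKR (Eif2ak2 -0.32 ± 0.08 (adjusted p = 0.0023)). The GCN2 inhibitor Impact rose (Impact 0.34 ± 0.06 (adjusted p = 7.6e-05)), with Eif2b4 0.25 ± 0.04 (adjusted p = 0.00015). Of 11 tested partners and regulators of ATF4, 7 rose and 2 fell (6 and 3 without composition scaling; median 0.26): Cebpd 1.91 ± 0.09 (adjusted p = 6.8e-12) and Nfil3 0.80 ± 0.06 (adjusted p = 4e-09), against Junb -0.42 ± 0.07 (adjusted p = 3.7e-05) and Jdp2 -0.33 ± 0.10 (adjusted p = 0.011). Cebpd encodes a C/EBP factor. In ER-associated degradation and translocation, 7 of 27 fell and 3 rose (median -0.05), against 11 and 2 without composition scaling (median -0.12), with Sec61a1 -0.44 ± 0.04 (adjusted p = 6.7e-08), the channel of the ER membrane, and Ssr1 -0.40 ± 0.04 (adjusted p = 1.6e-07), against Edem3 0.31 ± 0.04 (adjusted p = 3.2e-06) and Os9 0.40 ± 0.07 (adjusted p = 0.00019). Of 14 other sensors and regulators of the unfolded protein response, 5 fell and 2 rose (5 and 1 without composition scaling; median -0.01, and 0.00 with median-ratio size factors), with Creb3l1 -2.17 ± 0.17 (adjusted p = 2.5e-08) and Wfs1 -0.81 ± 0.05 (adjusted p = 6.9e-10), against Crebrf 0.76 ± 0.08 (adjusted p = 3.5e-07) and Atf6b 0.19 ± 0.05 (adjusted p = 0.0076). These shares compare with the 23.2% lower and 20.6% higher of all genes tested.

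With ginsenoside Rc present in both groups, dexamethasone lowered 26 of the 36 genes and raised 3 at 10 µM, and lowered 26 and raised 3 at 20 µM. Over all genes, 23.0% were lower and 21.1% higher at 10 µM, and 25.4% lower and 23.5% higher at 20 µM. Without replicate 2 of 20 µM alone, 25 fell and 4 rose at 20 µM, beside 25.6% and 25.4% of all genes, and 27 of the 29 calls at that dose were shared by both fits. The largest shift on the log2 scale among members was in Trib3 (-0.25). All dexamethasone libraries lay below all others of the dose in 27 members and above in 4 at 10 µM (30.6% and 29.2% of all genes), and below in 23 and above in 4 at 20 µM (25.6% and 24.5%). Without replicate 2 of 20 µM alone, which leaves 2 libraries to clear, these were 29 and 5 at 20 µM (33.1% and 32.3% of all genes). The medians were -0.36 at 10 µM and -0.35 at 20 µM (-0.38 without that library), against 0.00 over all genes at each dose. Across the 3 dexamethasone comparisons, which share no library, 24 genes fell in all 3 and Slc38a2 rose in all 3. A further 7 were called in 1 or 2 of them, and 4 in none (Dnajb9, Ern1, Herpud1 and Slc7a11). Some alternative fits did call Ern1 and Dnajb9, both lower. Without composition scaling Ern1 passed without ginsenoside and at 20 µM (edgeR, adjusted p = 0.021 and 0.034). Dnajb9 passed at 20 µM by DESeq2 (adjusted p = 0.044) and without composition scaling (edgeR, 0.017). It also passed there without replicate 1 or 3 of 20 µM alone (edgeR, 0.014 and 0.0096).

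**Figure D3:**
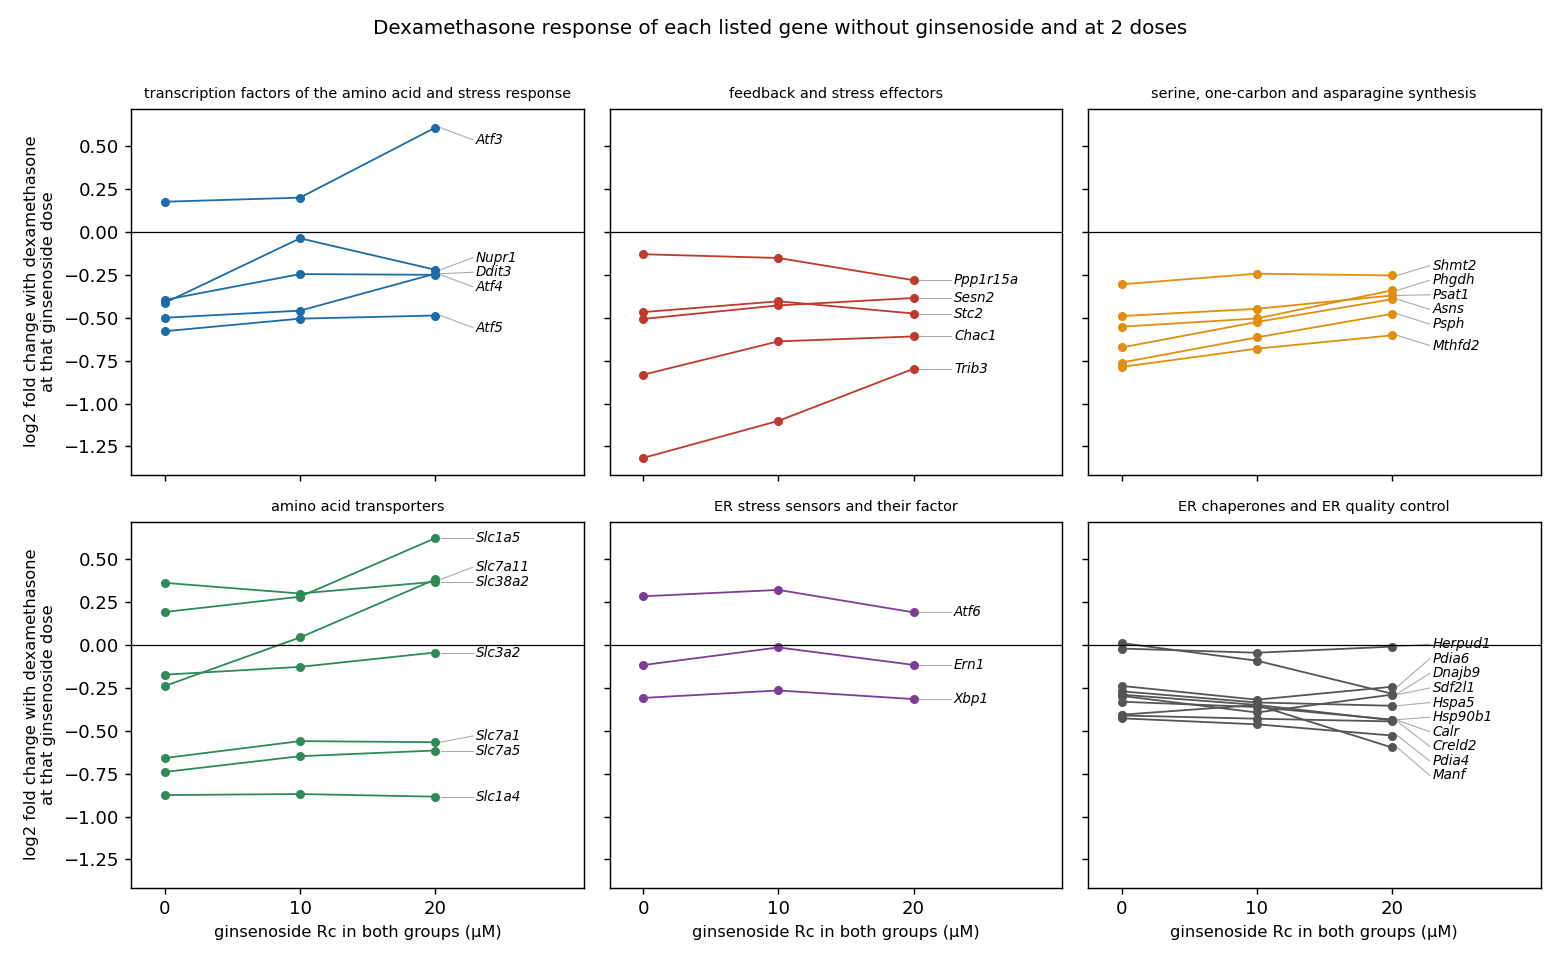
Log2 fold change of each gene with dexamethasone at 0, 10 and 20 µM ginsenoside Rc (both groups at the same dose; points without error bars, n = 3 libraries per group), in 1 panel per role. Most lines keep their side of 0. Trib3 lies at -1.32, -1.10 and -0.80, and Atf3 at 0.18, 0.20 and 0.61. Without replicate 2 of 20 µM alone, which is not drawn, their values at 20 µM were -1.05 and 0.47.

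Atf4 had 212, 213 and 222 CPM with dexamethasone plus 10 µM and 240, 254 and 273 CPM with 10 µM alone. With 20 µM in both groups the levels were 208, 218 and 234 CPM with dexamethasone and 255, 273 and 256 CPM without. Neither pair overlapped, and the log2 changes were -0.25 ± 0.05 at 10 µM and -0.25 ± 0.05 at 20 µM (-0.21 ± 0.05 without replicate 2 of 20 µM alone). Atf5 had 86.6, 86.5 and 89.7 CPM with dexamethasone plus 10 µM and 124, 111 and 138 CPM with 10 µM alone. Its levels were 86.5, 80.4 and 83.7 CPM with dexamethasone plus 20 µM and 114, 119 and 119 CPM with 20 µM alone. It fell at both doses without overlap (-0.51 ± 0.06 and -0.49 ± 0.06).

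Ddit3 had 10.4, 10.7 and 11 CPM with dexamethasone plus 10 µM and 14.5, 14.9 and 14.8 CPM with 10 µM alone (-0.46 ± 0.09). At 20 µM it had 10.8, 9.79 and 11.6 CPM with dexamethasone and 13.2, 10.7 and 14 CPM without, groups that overlap through replicate 2 of 20 µM alone (-0.24 ± 0.09, adjusted p = 0.033; -0.34 ± 0.08 without that library). Leaving out any other library of that pair except replicate 3 of dexamethasone plus 20 µM ended the call (adjusted p = 0.063 to 0.16). Nupr1 had 40.2, 42 and 45.7 CPM with dexamethasone plus 10 µM and 40.4, 45.5 and 45.3 CPM with 10 µM alone, which overlap (-0.04 ± 0.08, adjusted p = 0.74). With dexamethasone plus 20 µM it had 44.2, 37.4 and 44.6 CPM, against 45.9, 53.4 and 47.7 CPM with 20 µM alone (-0.22 ± 0.08, adjusted p = 0.026). That call ended without replicate 2 of 20 µM alone (adjusted p = 0.1) and without replicate 2 of dexamethasone plus 20 µM (0.16).

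Atf3 had 6, 6.41 and 5.62 CPM with dexamethasone plus 10 µM and 4.84, 5.53 and 5.29 CPM with 10 µM alone (0.20 ± 0.12, adjusted p = 0.21). At 20 µM it rose, with 6.37, 6.06 and 6.87 CPM with dexamethasone and 5.13, 3.32 and 4.15 CPM without (0.61 ± 0.13, adjusted p = 0.00059; 0.47 ± 0.11 and 0.0012 without replicate 2 of 20 µM alone). Neither pair overlapped.

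Trib3 had 5.39, 4.73 and 4.64 CPM with dexamethasone plus 10 µM and 9.83, 11.2 and 10.6 CPM with 10 µM alone (-1.10 ± 0.18). At 20 µM it had 4.42, 4.83 and 3.85 CPM with dexamethasone, against 8.16, 4.55 and 9.99 CPM without (-0.80 ± 0.19; -1.05 ± 0.11 without replicate 2 of 20 µM alone). The low value of 4.55 CPM is that replicate, and it alone makes the groups overlap. Chac1 had 14.7, 14.1 and 14.1 CPM with dexamethasone plus 10 µM and 20.8, 21.7 and 24.1 CPM with 10 µM alone (-0.64 ± 0.06). Its levels at 20 µM were 13.4, 13.3 and 12.9 CPM with dexamethasone and 18.9, 20.8 and 20.7 CPM without (-0.61 ± 0.06). Stc2 had 8.31, 8.39 and 8.98 CPM with dexamethasone plus 10 µM and 11.6, 10.6 and 11.8 CPM with 10 µM alone (-0.40 ± 0.11). Chac1 and Stc2 did not overlap between groups at either dose. Stc2 at 20 µM had 7.94, 8.44 and 8.6 CPM with dexamethasone and 10.5, 14.3 and 10 CPM without, where 14.3 CPM is replicate 2 (-0.48 ± 0.11; -0.30 ± 0.08 without it). Ppp1r15a passed at 20 µM (-0.28 ± 0.09, adjusted p = 0.012), a call that ended without replicate 2 of 20 µM alone (adjusted p = 0.057) and without replicate 2 of dexamethasone plus 20 µM (0.082).

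The 6 synthesis genes fell at both doses, with medians of -0.51 at 10 µM and -0.38 at 20 µM (-0.45 without replicate 2 of 20 µM alone). Asns had 41.6, 37.1 and 38.8 CPM with dexamethasone plus 10 µM, against 52.4, 56.8 and 59.8 CPM with 10 µM alone, and 38.2, 38.6 and 38.4 CPM with dexamethasone plus 20 µM, against 53.3, 46.3 and 51.4 CPM with 20 µM alone. Psat1 had 102, 101 and 104 CPM with dexamethasone plus 10 µM, against 129, 142 and 147 CPM with 10 µM alone, and 96.1, 101 and 110 CPM with dexamethasone plus 20 µM, against 136, 130 and 130 CPM with 20 µM alone. Neither gene overlapped at either dose. Mthfd2 had 30.7, 30.1 and 30.7 CPM with dexamethasone plus 10 µM, against 46, 50.5 and 50.1 CPM with 10 µM alone, and 27.4, 27.1 and 27.4 CPM with dexamethasone plus 20 µM, against 44.2, 33.7 and 46.3 CPM with 20 µM alone. The dexamethasone libraries of Mthfd2 spanned less than 1 CPM within each dose, and at 20 µM its change was -0.60 ± 0.09 (-0.73 ± 0.07 without replicate 2 of 20 µM alone). Psph overlapped at 20 µM through replicate 2 of 20 µM alone (-0.48 ± 0.13; -0.67 ± 0.08 without it).

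Slc7a5 had 119, 120 and 112 CPM with dexamethasone plus 10 µM and 178, 184 and 187 CPM with 10 µM alone (-0.65 ± 0.04, adjusted p = 4.6e-10). Its levels at 20 µM were 105, 109 and 107 CPM with dexamethasone and 170, 157 and 164 CPM without (-0.61 ± 0.04, adjusted p = 8.8e-10). The groups were well apart at both doses. Slc7a11 had 11.5, 18.8 and 14.5 CPM with dexamethasone plus 10 µM, against 17.2, 9.48 and 16.8 CPM with 10 µM alone, and 14.8, 15.9 and 14.9 CPM with dexamethasone plus 20 µM, against 12.9, 7.84 and 14.1 CPM with 20 µM alone. It passed in neither (0.04 ± 0.29 at 10 µM and 0.38 ± 0.29 at 20 µM; 0.17 ± 0.32 at 20 µM without replicate 2 of 20 µM alone). Slc1a5 rose at both doses, by 0.28 ± 0.11 at 10 µM and 0.62 ± 0.11 at 20 µM (adjusted p = 0.045 and 0.00012; 0.49 ± 0.09 at 20 µM without replicate 2 of 20 µM alone). The call at 10 µM ended without replicate 1 or 2 of dexamethasone plus 10 µM and without replicate 2 or 3 of 10 µM alone (adjusted p = 0.1 to 0.18), and without composition scaling (0.16). Slc3a2 fell at 10 µM (-0.13 ± 0.04, adjusted p = 0.018; 0.059 to 0.11 without replicate 1 or 2 of dexamethasone plus 10 µM or replicate 3 of 10 µM alone, 0.14 with no low-count filter) and did not pass at 20 µM (-0.04 ± 0.04, adjusted p = 0.41).

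Atf6 had 277, 266 and 272 CPM with dexamethasone plus 10 µM and 221, 215 and 216 CPM with 10 µM alone (0.32 ± 0.09, adjusted p = 0.0058). The groups with 20 µM, at 282, 278 and 262 CPM with dexamethasone and 212, 294 and 215 CPM without, overlapped and the change did not pass (0.19 ± 0.09, adjusted p = 0.082). Without replicate 2 of 20 µM alone, which held the 294 CPM, it rose there too (0.36 ± 0.05, adjusted p = 3.8e-07). Xbp1 had 130, 131 and 139 CPM with dexamethasone plus 10 µM, against 158, 163 and 159 CPM with 10 µM alone, and 121, 124 and 141 CPM with dexamethasone plus 20 µM, against 168, 158 and 155 CPM with 20 µM alone. It fell at both doses without overlap (-0.27 ± 0.05 and -0.32 ± 0.05). Ern1 had 39.1, 38.3 and 40.9 CPM with dexamethasone plus 10 µM, against 40.1, 39.1 and 40.3 CPM with 10 µM alone, and 39.1, 39.9 and 33.6 CPM with dexamethasone plus 20 µM, against 38.6, 41.7 and 41.9 CPM with 20 µM alone. Its groups overlapped at both doses.

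Hspa5 had 601, 631 and 591 CPM with dexamethasone plus 10 µM and 785, 757 and 757 CPM with 10 µM alone (-0.34 ± 0.07). Hspa5 levels at 20 µM were 570, 563 and 615 CPM with dexamethasone and 805, 644 and 785 CPM without (-0.35 ± 0.07; -0.45 ± 0.05 without replicate 2 of 20 µM alone). BiP mRNA was thus lower in every dexamethasone library than in any library of the same dose without it. Creld2 had 24.3, 24.5 and 24.5 CPM with dexamethasone plus 10 µM, against 32.7, 33.7 and 32.5 CPM with 10 µM alone, and 22, 22.7 and 25 CPM with dexamethasone plus 20 µM, against 34.2, 26.8 and 33.7 CPM with 20 µM alone. Manf had 68.5, 69.7 and 75.1 CPM with dexamethasone plus 10 µM, against 84.9, 94.8 and 92 CPM with 10 µM alone, and 65.7, 60.8 and 76 CPM with dexamethasone plus 20 µM, against 98.5, 110 and 97.7 CPM with 20 µM alone. Both fell at both doses without overlap, with log2 changes of -0.43 ± 0.07 and -0.45 ± 0.07 for Creld2 and -0.35 ± 0.07 and -0.60 ± 0.07 for Manf. Without replicate 2 of 20 µM alone, those at 20 µM were -0.55 ± 0.05 for Creld2 and -0.54 ± 0.07 for Manf.

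Sdf2l1 had 9.56, 11.2 and 10.4 CPM with dexamethasone plus 10 µM and 14, 13.5 and 13.3 CPM with 10 µM alone (-0.39 ± 0.12, adjusted p = 0.011; 0.058 without replicate 1 of dexamethasone plus 10 µM). Sdf2l1 levels at 20 µM were 8.89, 9.32 and 10.3 CPM with dexamethasone and 13.5, 8.94 and 12.3 CPM without (-0.29 ± 0.12, adjusted p = 0.055; -0.44 ± 0.09 and 0.00031 without replicate 2 of 20 µM alone). Replicate 2 of 20 µM alone, at 8.94 CPM, is what makes the groups overlap. Herpud1 had 185, 175 and 193 CPM with dexamethasone plus 10 µM, against 181, 203 and 187 CPM with 10 µM alone, and 182, 181 and 192 CPM with dexamethasone plus 20 µM, against 184, 185 and 189 CPM with 20 µM alone. Dnajb9 had 51.8, 49 and 53.1 CPM with dexamethasone plus 10 µM, against 53, 56.4 and 54.5 CPM with 10 µM alone, and 51.7, 51.6 and 50.3 CPM with dexamethasone plus 20 µM, against 53.5, 81.4 and 52.5 CPM with 20 µM alone. Neither passed at either dose, although Dnajb9 was without overlap at 20 µM (-0.28 ± 0.12, adjusted p = 0.055; -0.05 ± 0.06 and 0.53 without replicate 2 of 20 µM alone). Pdia6 fell at both doses (-0.32 ± 0.08 at 10 µM and -0.24 ± 0.08 at 20 µM, -0.35 ± 0.05 without replicate 2 of 20 µM alone), though at 20 µM the call ended when replicate 1 or 3 of 20 µM alone or replicate 2 of dexamethasone plus 20 µM was left out (adjusted p = 0.055 to 0.072).

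Whether ginsenoside Rc changed the dexamethasone response was tested as an interaction, the log2 change with dexamethasone at a dose minus the same change without ginsenoside. No member passed at either dose (edgeR, 0 of 36 and 0 of 15436 genes, 0.0% at each dose). DESeq2 also called no member, nor did the fit without replicate 2 of 20 µM alone. At an unadjusted p under 0.05 there were 2 members at 10 µM and 6 at 20 µM, against 2.12% and 5.29% of all genes. At 10 µM they were Nupr1 (0.38 ± 0.11, adjusted p = 1.0) and Chac1 (0.19 ± 0.08, adjusted p = 1.0). At 20 µM they were Slc1a5, Asns, Chac1, Atf3, Slc3a2 and Slc7a5, between 0.12 (Slc7a5) and 0.43 (Slc1a5 and Atf3), each with an adjusted p of 0.89. Without replicate 2 of 20 µM alone there were also 6 members at 20 µM (16.7%, against 5.73% of all genes), 1 of them below 0. They were Slc1a5 (0.29 ± 0.12), Asns (0.23 ± 0.09), Chac1 (0.25 ± 0.09), Nupr1 (0.26 ± 0.10), Atf4 (0.18 ± 0.07) and Hspa5 (-0.18 ± 0.06). Atf3 gave 0.29 ± 0.15 in that fit and was not among them. These values are differences of differences, and a positive value means a weaker fall or a stronger rise with ginsenoside present. In the order control, 20 µM alone, dexamethasone and both, Chac1 averaged 24.7, 20.2, 13.9 and 13.2 CPM. Slc7a5 averaged 187, 164, 112 and 107 CPM, Asns 60.8, 50.4, 38.1 and 38.4, and Slc3a2 126, 116, 112 and 113. Slc1a5 averaged 10, 9, 11.5 and 13.9 CPM, and Atf3 4.33, 4.2, 4.89 and 6.44. A positive value can thus go with a lower mean at 20 µM alone, as for Chac1, or a higher one with both, as for Atf3. For Atf4 the 95% intervals ran from -0.01 to 0.31 at 10 µM and -0.01 to 0.30 at 20 µM, and for Hspa5 from -0.26 to 0.13 and -0.28 to 0.12. Those at 20 µM were 0.04 to 0.32 for Atf4 and -0.31 to -0.05 for Hspa5 without replicate 2 of 20 µM alone. Neither passed in that fit (adjusted p = 0.76 and 0.69). The 2 doses share the dexamethasone and control libraries, so their values are not independent.

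Ginsenoside Rc added before dexamethasone left every member short of the threshold against dexamethasone alone. The counts called were 0 of 36 at both doses (edgeR; DESeq2 also 0). Of all genes, 0.0259% were called at 10 µM and 0.369% at 20 µM. At an unadjusted p under 0.05 there were 2 members at 10 µM and 3 at 20 µM, against 3.85% and 8.75% of all genes. Atf3 was in both: it had 6, 6.41 and 5.62 CPM with dexamethasone plus 10 µM, 6.37, 6.06 and 6.87 CPM with dexamethasone plus 20 µM and 5.17, 4.56 and 4.93 CPM with dexamethasone alone. Every library with ginsenoside lay above those without (0.30 ± 0.12, adjusted p = 1.0, and 0.40 ± 0.12, adjusted p = 0.21). In the fit without replicate 2 of 20 µM alone, a library outside this comparison that adds to the shared estimate of spread, the change at 20 µM passed (adjusted p = 0.034). In that fit 4 members at 10 µM and 9 at 20 µM had an unadjusted p under 0.05 (6.04% and 13.2% of all genes), 6 of the 9 lower than with dexamethasone alone. These 6 were Hspa5 (-0.14 ± 0.04, adjusted p = 0.08), Sdf2l1, Pdia4, Phgdh, Creld2 and Manf, and the 3 higher ones were Atf3, Slc1a5 and Nupr1. Nupr1 at 10 µM (0.17 ± 0.08) and Slc1a5 (0.28 ± 0.11) and Pdia4 (-0.10 ± 0.04) at 20 µM were the others.

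With all libraries in the fit, no other member reached an unadjusted p of 0.05. At 10 µM, Atf4, Atf3, Mthfd2 and Ern1 lay above dexamethasone alone without overlap, and Phgdh below (5.23% and 5.58% of all genes). At 20 µM, Atf3 and Slc1a5 lay above and Phgdh, Slc7a5 and Hspa5 below (7.23% and 7.68%). The log2 changes of Atf4 were 0.05 ± 0.05 and 0.08 ± 0.05, with intervals of -0.06 to 0.16 and -0.03 to 0.19. All 10 ER chaperone and quality control genes had a change below 0 at both doses, with medians of -0.05 at 10 µM and -0.10 at 20 µM, none of them called and both doses measured against the same 3 dexamethasone libraries. Hspa5 changed by -0.08 ± 0.07 and -0.14 ± 0.07, with intervals of -0.22 to 0.06 and -0.28 to 0.00.

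Without dexamethasone, no member passed at 10 µM or 20 µM ginsenoside Rc against control (edgeR, 0 of 36 at each dose, and 0.00648% and 0.104% of all genes). DESeq2 called 0 at 10 µM and 3 at 20 µM, Chac1, Slc7a5 and Phgdh, all lower (0.512% of all genes were called lower by DESeq2). At an unadjusted p under 0.05 there were 3 members at 10 µM (Atf3, Nupr1 and Chac1; 2.54% of all genes). At 20 µM there were 12, or 33.3% of the list against 9.29% of all genes, and all 12 were below control. Without replicate 2 of 20 µM alone there were 10, against 7.8% of all genes, again all below control. The median change over the list was -0.02 at 10 µM and -0.07 at 20 µM, against 0.00 and -0.01 over all genes. In 9 members all 3 libraries with 20 µM lay below all 3 control libraries (7.04% of all genes): Atf5, Trib3, Chac1, Asns, Psat1, Phgdh, Slc7a5, Slc7a1 and Slc3a2. With the other 2 libraries of 20 µM alone there were 14 (14.2% of all genes). The median over the list was then -0.08.

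**Figure D4:**
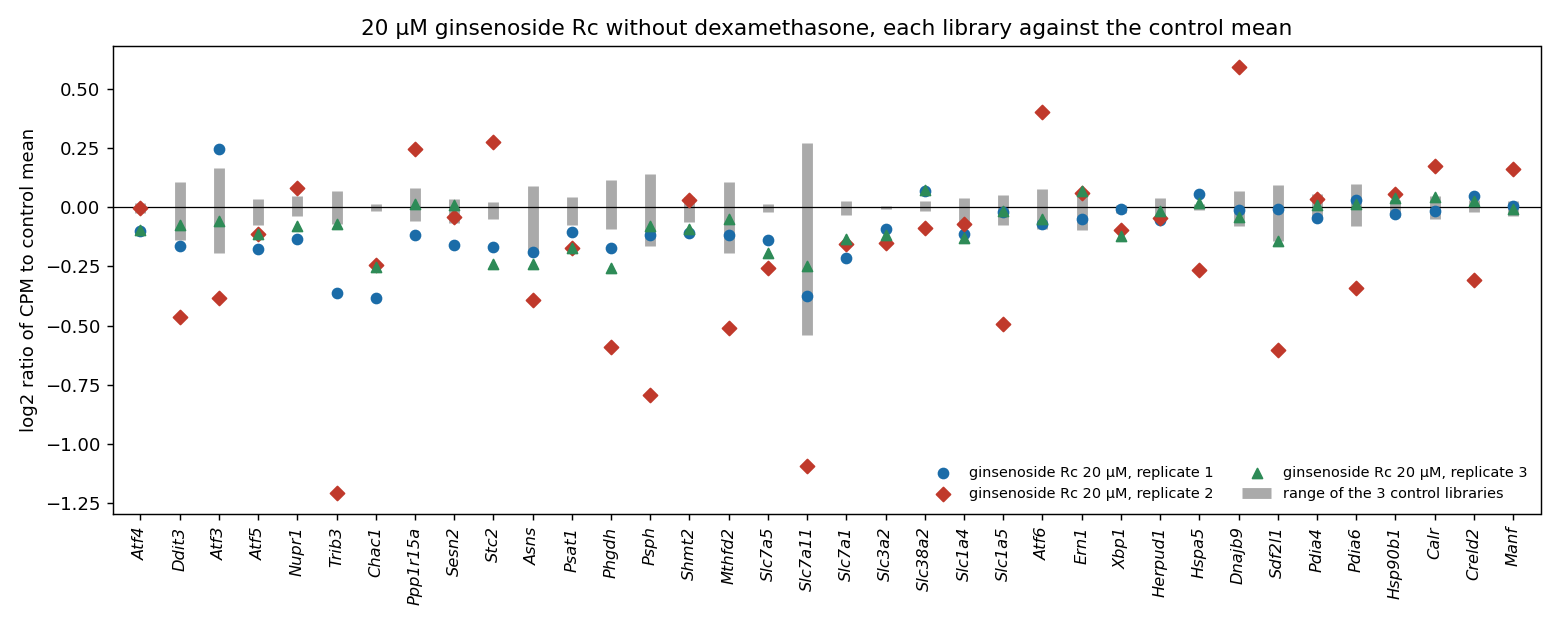
Log2 ratio of CPM in each library with 20 µM ginsenoside Rc alone to the mean of the 3 control libraries, for all 36 genes; symbols are replicates 1 to 3 and grey bars span the control libraries. Replicate 2 lies far from the other replicates for Trib3, Psph, Slc7a11, Sdf2l1, Atf6 and Dnajb9, while all 3 replicates lie below the control bar for Chac1, Slc7a5, Slc7a1 and Slc3a2.

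Chac1 was nearest to the threshold, with 20.8, 21.7 and 24.1 CPM with 10 µM, 18.9, 20.8 and 20.7 CPM with 20 µM and 24.7, 24.9 and 24.4 CPM in control. Libraries of both doses lay below every control library. The log2 change at 20 µM was -0.29 ± 0.06 (adjusted p = 0.066; -0.32 ± 0.06 and 0.021 without replicate 2; 0.038 without composition scaling; 0.0048 by DESeq2), and at 10 µM -0.15 ± 0.06 (adjusted p = 1.0). Slc7a5 had 178, 184 and 187 CPM with 10 µM, 170, 157 and 164 CPM with 20 µM and 185, 189 and 188 CPM in control. At 20 µM its change was -0.20 ± 0.04 (adjusted p = 0.089; 0.086 without replicate 2; 0.00065 by DESeq2). Phgdh lay at 56.3 to 75.2 CPM with 20 µM and 79.5 to 91.8 CPM in control (-0.33 ± 0.08, adjusted p = 0.13; 0.048 without replicate 1; -0.22 ± 0.05 and 0.11 without replicate 2; 0.021 by DESeq2). Asns changed by -0.27 ± 0.07 at 20 µM (adjusted p = 0.18; -0.22 ± 0.07 without replicate 2).

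By role, the changes at 20 µM had medians of -0.24 for the 6 synthesis genes and -0.15 for the 7 transporters (-0.12 for each without replicate 2). They were -0.07 for the 5 transcription factors (-0.11 without it) and -0.06 for the 5 feedback genes (-0.20). For the 3 sensors and the 10 chaperone genes the median turned sign, with 0.03 and -0.02 in all libraries and -0.06 and 0.00 without replicate 2. Differences between roles were not tested. Atf4 changed by -0.07 ± 0.05, with an interval of -0.18 to 0.05 (-0.10 ± 0.05 without replicate 2), and Hspa5 by -0.06 ± 0.07, with an interval of -0.20 to 0.08 (0.04 ± 0.05 without replicate 2). Trib3 changed by -0.47 ± 0.18 with all libraries and -0.21 ± 0.10 without replicate 2, and Psph by -0.29 ± 0.13 and -0.10 ± 0.08. Over the list, the 95% intervals reached a median of 0.15 to either side in these comparisons with 3 libraries per group, and up to 0.62.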

How the data were processed

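Per the submitters' processing notes, the tools were RSEM 1.3.3, STAR 2.7.3a, FastQC 0.11.9 and Trim Galore 0.6.5, with mouse build GRCm38 (mm10). For the annotation, filters and strand setting, the sources used here give nothing. The authors deposited a table of expected counts (RSEM's estimated fragments per gene); 9.02% of values were not whole. Expected counts were rounded, filtered with filterByExpr, scaled by TMM and fitted with 1 mean per group over all 18 libraries (edgeR 4.0.16, quasi-likelihood, robust; R 4.3.3). Each of 9 comparisons was tested over 15436 genes with Benjamini-Hochberg adjustment at 0.05. Each SE comes from the log2 change and its F statistic. The fit was also run on simulated counts in which far fewer genes changed than in these data. The outcome of that run is not given here and is not used as support. Symbols came from GENCODE M21, exon lengths and overlaps too, and 446 IDs without a symbol (0.0385% of fragments) stayed in the fit. Alternatives were DESeq2 1.42.0, other scalings, no filter, only the compared groups, a replicate block, and leaving out each library. The members, the lists and the 22 members given library by library were chosen with earlier results of these data known. From each pathway list, the 2 genes with the smallest adjusted p in each direction were named. Deviations of same-numbered replicates were at most weakly correlated, and every pair of replicates differed by more than sampling noise.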

Additional observations from a re-analysis of the deposited data

How the results depend on the processing

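The counts of members that fell with dexamethasone stayed within 1.5 times of the values above under every alternative run, and no member's called change turned direction under any of them. Leaving out 1 library at a time gave 25 to 27 lower and 1 to 3 higher without ginsenoside (2 higher in the full fit, 1 without control replicate 2, where Atf6 missed), 24 to 26 lower and 2 to 3 higher at 10 µM, and 22 to 27 lower and 3 to 4 higher at 20 µM. With 20 µM alone against control, where no member passed, 1 member was lower without composition scaling (Chac1), 0 to 1 with a library left out (1 without replicate 1 and 1 without replicate 2) and 3 with DESeq2. With dexamethasone plus 20 µM against dexamethasone, 0 to 1 members were higher with a library left out (Atf3, without replicate 2 of 20 µM alone). The cause of these changes was not tested. A replicate block changed 1 call, Slc1a5 at 10 µM (0.28, adjusted p = 0.052). Correlations of same-numbered libraries were -0.196 to 0.15. All 3 were above 0 for 10 µM alone with control (0.04 to 0.15) and for dexamethasone plus 10 µM with dexamethasone (0.03 to 0.08). Correlations this weak cannot decide whether the numbers pair the samples. With only the compared groups in the fit, 5 calls at 20 µM were lost: Pdia6, Ddit3, Psph, Nupr1 and Ppp1r15a. Without composition scaling the dexamethasone medians of the list were -0.47, -0.42 and -0.40 at 0, 10 and 20 µM. Depth limits Atf3 most, whose lowest count was 121.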

Other observations

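Genes listed for amino acid sensing by the kinase mTORC1 moved differently from the amino acid genes above. The list holds Mtor and Rptor themselves and mixes genes that promote and restrain mTORC1, so its counts give no direction of signalling. Of 14 genes of amino acid sensing by mTORC1, 9 were higher and 1 was lower with dexamethasone than in control (median 0.17, and 0.10 without composition scaling, where 7 were higher), against 20.6% higher and 23.2% lower of all genes tested. The 2 with the smallest adjusted p were Rragd, a GTPase that brings mTORC1 to lysosomes (24.4 ± 1.46 CPM with dexamethasone and 9.9 ± 0.337 CPM in control, SD, n = 3 each; adjusted p = 3.4e-11, edgeR), and Sesn1 1.29 ± 0.11 (adjusted p = 4.3e-08), a relative of Sesn2. Castor1, an arginine sensor, was lower (Castor1 -0.60 ± 0.15 (adjusted p = 0.0031)). With ginsenoside in both groups, 8 were higher and 1 lower at 10 µM, and 9 were higher and 1 lower at 20 µM. Sesn2, a member of the 36, fell in the same comparison (-0.51 ± 0.07), so the 2 sestrins changed in opposite directions.

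Replicate 2 of 20 µM ginsenoside Rc alone differed from the other libraries in both directions. Trib3 was 4.55 CPM there, against 8.16 to 11.2 CPM in the other 8 libraries without dexamethasone, and Hspa5 was 644 CPM, against 757 to 805 CPM. Dnajb9 was 81.4 CPM, against 51.1 to 56.6 CPM, and Atf6 was 294 CPM, against 209 to 235 CPM.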
